A study of Sus scrofa with 6 samples.

Results

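The phosphorylase kinase genes PHKG1, PHKG2, PHKA1, PHKA2 and PHKB, the glycogen phosphorylase genes PYGB, PYGM and PYGL, and GYS1 and GBE1 of glycogen synthesis were selected by symbol, 10 of 17201 genes listed in RNA sequencing of the prefrontal cortex of 6 piglets, Sus scrofa, at an age of 3 months. By the sample labels, 3 animals (391, 392 and 393) were exposed to valproic acid (VPA, an anticonvulsant that inhibits histone deacetylases) at 75 mg/kg, during early gestation according to the series design, and 3 (401, 402 and 408) were controls with no treatment. The series presents the exposure as a model of autism, and the comparison asks how cortical expression differs after it. The sources used here do not give strain, sex or litter, nor the route of the dose. All 10 genes were found and all passed the filter on low counts. PHKG1 was chosen because it was higher in the VPA libraries, so its difference is described here with no test. The other 9 belong to the list by their function, though the list was drawn up with earlier results of these data known.

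Glycogen is the store of glucose that brain cells can draw on locally, and most brain glycogen lies in astrocytes. Phosphorylase kinase starts its breakdown: it phosphorylates glycogen phosphorylase, which then releases glucose units from the polymer. The kinase is built from a catalytic gamma subunit (PHKG1 in the muscle form, PHKG2 in the form best known from liver and testis), regulatory alpha (PHKA1 in the muscle form, PHKA2 in the liver form) and beta (PHKB) subunits, and calmodulin as the delta subunit, which senses calcium. Its substrate is encoded by PYGB (brain form), PYGM (muscle form) and PYGL (liver form), while GYS1 (glycogen synthase) and GBE1 (branching enzyme) build the polymer. In pigs, PHKG1 is also known for a splice-site variant that raises glycogen in skeletal muscle. The genotype of these animals at that site was not analysed here.

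Total counts per library ran from 16285517 to 17989032, so 1 CPM (the count over the library total, on a scale shared by all libraries) stood for 16.3 to 17.99 reads. The labelled tissue was checked against marker genes. All 12 glutamatergic neuron markers were tested, with summed levels of 5824 to 6013 CPM in VPA and 6133 to 6287 CPM in controls, and 9 had negative log2 fold changes. Of 14 measured astrocyte markers 12 had positive ones, with sums of 13539 to 15232 CPM in VPA and 12768 to 13484 CPM in controls. Oligodendrocyte markers (14 of 16 positive) summed to 18171 to 20499.5 CPM in VPA and 13836 to 18542 CPM in controls, and their precursors' (9 of 10 positive) to 1316 to 1527 and 1077 to 1269 CPM. Oligodendrocyte sums overlapped between groups (control 401 lay above VPA 393), while the precursor, astrocyte and glutamatergic sums did not. Striatal projection neuron markers (10 of 10 positive) summed to 213 to 625 CPM in VPA, highest in VPA 393, and 178 to 206 CPM in controls, with no overlap. None of the measured markers in these 5 lists was at 0 in all libraries at once. In bulk tissue, fewer cells of a type and less RNA per cell cannot be told apart. Sums overlapped between groups for microglia (526 to 535 CPM in VPA, 431 to 536 in controls), endothelial cells (363 to 436 and 365 to 403), mural cells and fibroblasts (474 to 601 and 416 to 516) and GABAergic interneurons (1101 to 1176 and 1105 to 1134). They also overlapped for choroid plexus and ependyma (70.8 to 98.2 and 65.01 to 79.5), red blood cells (127 to 207 and 23.7 to 210.2) and liver (142 to 187 and 152 to 157). Within the choroid plexus list (6 of 8 positive), TTR did not overlap, at 4.42 to 9.84 CPM in VPA and 0.611 to 1.42 CPM in controls, and was the 1 marker called (log2 fold change 2.55 ± 0.38 SE, edgeR adjusted p = 0.041).

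PHKG1, the muscle-type catalytic subunit, was scarce in control cortex and about 2.27-fold higher in VPA cortex. It had 74, 62 and 54 reads in controls 401, 402 and 408, which is 4.11, 3.68 and 3.07 CPM. In VPA 391, 392 and 393 it had 158, 116 and 150 reads, which is 9.45, 7.12 and 8.34 CPM. All 3 VPA libraries lay above all 3 controls, which the choice of PHKG1 for its rise favours and 12.1% of all genes showed. The lowest VPA value was 7.12 CPM and the highest control value 4.11 CPM. The means were 8.30 ± 1.16 CPM in VPA and 3.62 ± 0.523 CPM in controls (SD, n = 3 each), and the fitted log2 fold change was 1.18 ± 0.18 (SE). Among all 14373 genes tested, 49 had a larger positive log2 fold change, and 0.543% had one above 1. With 1 library left out in turn the log2 fold change of PHKG1 ran from 1.07 to 1.28. The astrocyte, oligodendrocyte precursor, striatal, glutamatergic and skeletal muscle marker sums, and TTR, separated the same groups, and their part in the difference of PHKG1, and in those of PHKA1, PYGL and GBE1 below, was not tested.

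**Figure D1:**
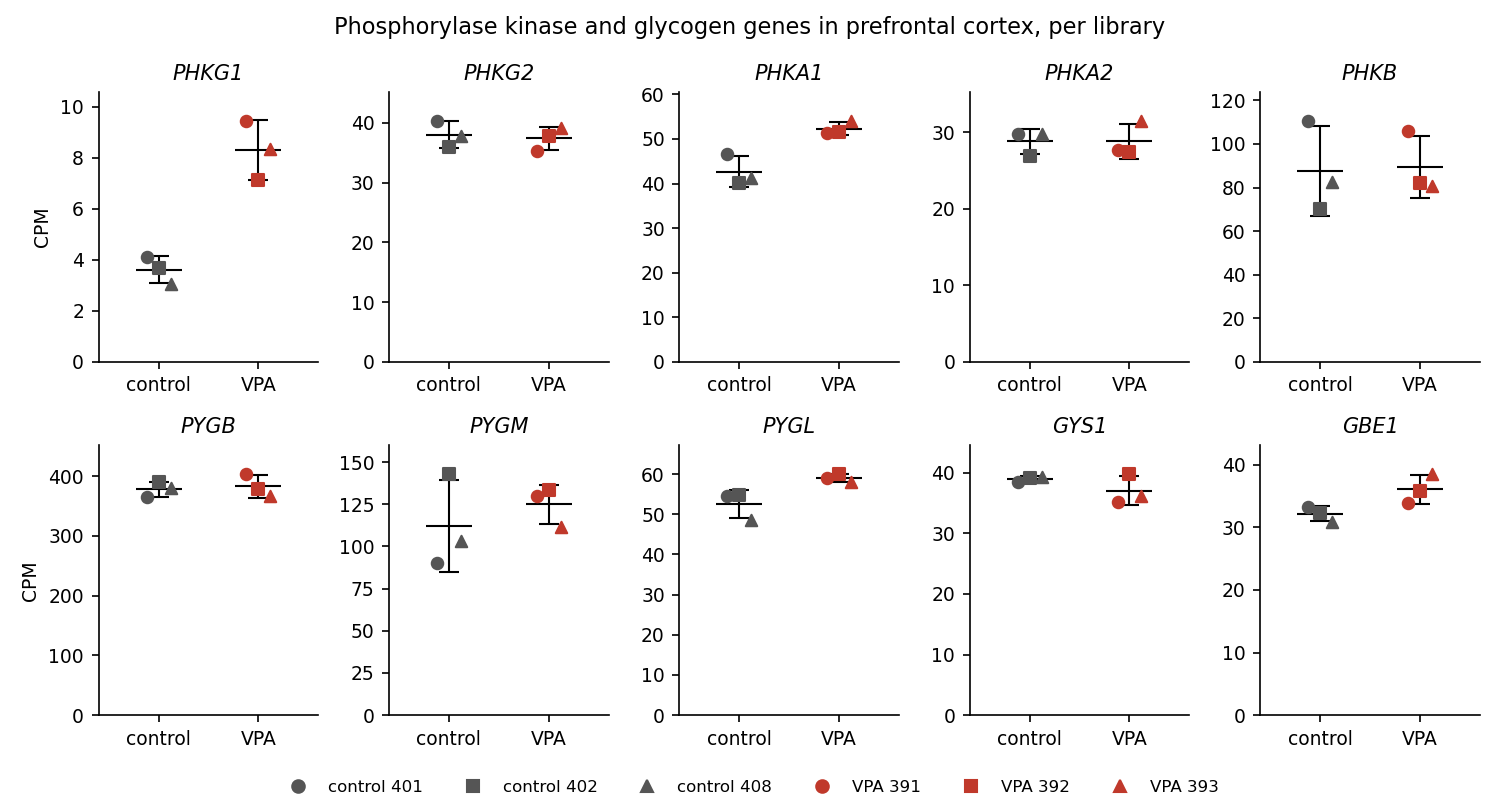
CPM (y axis, from 0) of the 10 genes in each library, controls in grey and VPA in red, with 1 symbol per animal. Horizontal lines are group means and bars are SD (n = 3 each). PHKG1 stands at 3.07 to 4.11 CPM in controls and 7.12 to 9.45 CPM in VPA, while PHKG2, PYGB and GYS1 overlap between groups.

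The gene model of PHKG1 shares its place with another gene. In RefSeq's gene table of the Sscrofa11.1 assembly, used here only for names and neighbours, the span of PHKG1 lies inside that of SUMF2, which encodes a sulfatase-modifying factor. SUMF2 had 62, 60 and 62 reads in VPA 391, 392 and 393 and 50, 39 and 55 reads in controls 401, 402 and 408. Its groups did not overlap, at 3.61 ± 0.144 CPM in VPA and 2.74 ± 0.409 CPM in controls (SD, n = 3 each). Of all genes, 12.1% did not overlap with VPA higher. SUMF2 had a log2 fold change of 0.38 ± 0.21 (SE) and was not called (edgeR adjusted p = 0.42). The sources used here do not say whether counting used strand, so reads of PHKG1 and SUMF2 cannot be told apart where the genes overlap. The next genes on either side outside the overlap were CHCHD2, with 102.7 ± 6.05 CPM in VPA and 107 ± 4.88 CPM in controls, and CCT6A, with 154 ± 4.87 and 162 ± 8.20 CPM. Both had overlapping groups and small negative log2 fold changes, -0.070 ± 0.058 and -0.086 ± 0.054 (edgeR adjusted p = 0.60 and 0.47).

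**Figure D2:**
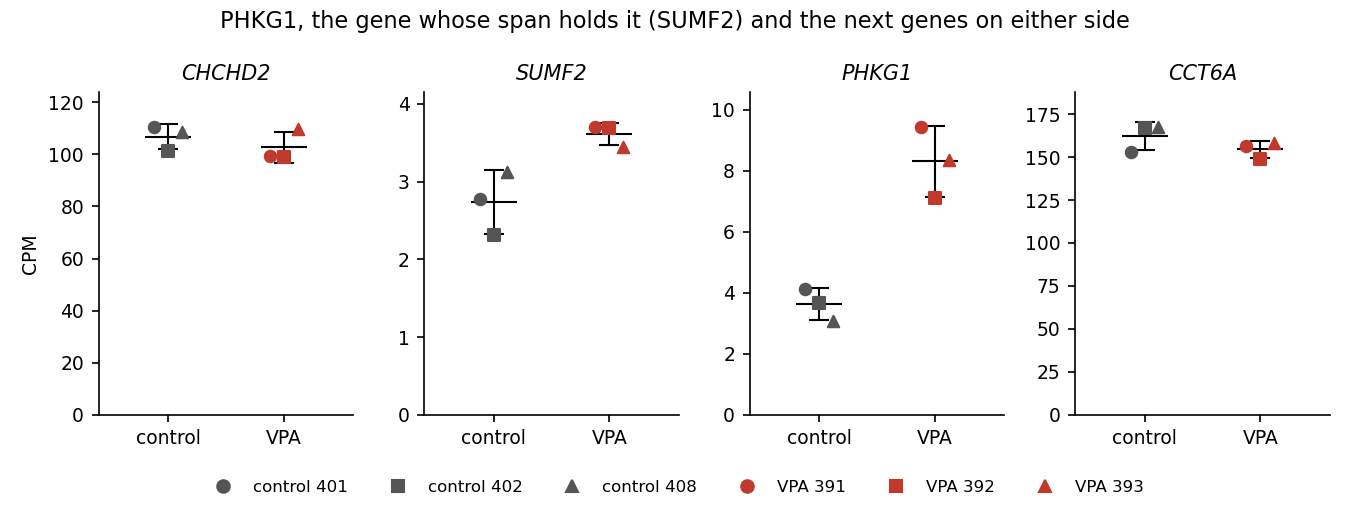
CPM (y axes, from 0) of PHKG1, of SUMF2, whose span holds it, and of CHCHD2 and CCT6A on either side, per library, with group means and SD (n = 3 each). VPA libraries lie above controls for PHKG1 and SUMF2 and overlap them for CHCHD2 and CCT6A.

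PHKG2, the other catalytic subunit, showed no such separation. It had 35.2, 37.8 and 39.1 CPM in VPA 391, 392 and 393 and 40.3, 35.9 and 37.8 CPM in controls 401, 402 and 408. The groups overlapped, with a log2 fold change of -0.038 ± 0.075 (SE, edgeR adjusted p = 0.85) and a 95% interval of -0.20 to 0.13. Per length, PHKG2 was the main gamma transcript in every library. Its FPKM (reads per kilobase of gene length and library size, as deposited) exceeded that of PHKG1 10.98-fold over the control means and 4.71-fold over the VPA means. PHKG1 made up 8.89%, 8.91% and 7.21% of the summed gamma FPKM in controls 401, 402 and 408, and 20.4%, 15.3% and 16.9% in VPA 391, 392 and 393. The gamma sum, mostly PHKG2, was 26.3 ± 0.910 FPKM in VPA and 24.05 ± 1.43 FPKM in controls (SD, n = 3 each). VPA 391 and control 401 were nearly level in that sum, at 25.7 and 25.6 FPKM.

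Among the 9 genes not chosen for their change, 0 passed an adjusted p of 0.05 by edgeR (quasi-likelihood F test, adjusted over all 14373 genes after Benjamini and Hochberg), and 2 (PHKA1 and PYGL) had an unadjusted edgeR p under 0.05, as had 16.1% of all genes. DESeq2 also called 0. Over all genes edgeR called 0.362%, with 0.278% higher and 0.0835% lower in VPA, so a count of 0 in 9 is near the background. Of the 9, 6 had positive and 3 negative log2 fold changes, with a median of 0.018, against 0.0018 over all genes tested, of which 49.5% were negative. The groups did not overlap in 3 of the 9 (PHKA1, PYGL and GBE1), and in 21.2% of all genes. All 3 lay higher in VPA, and 12.1% of all genes did not overlap in that direction.

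**Figure D3:**
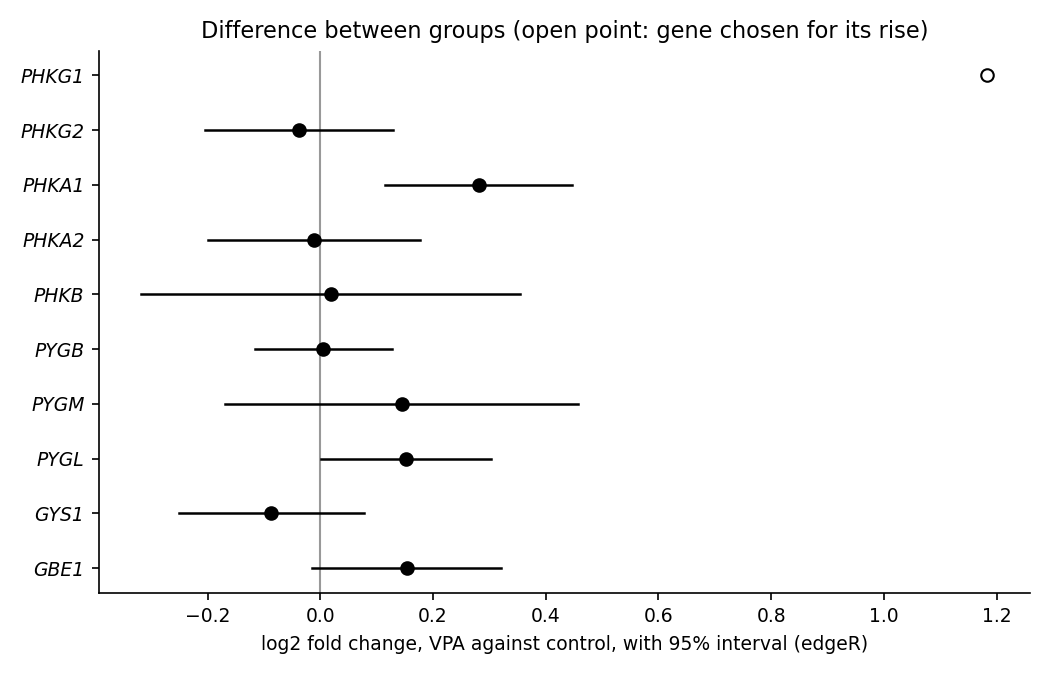
Log2 fold change of VPA against control (x axis) for the 10 genes, with the 95% interval of the edgeR fit as a line for the 9 genes not chosen for their change. The open point is PHKG1, at 1.18, shown with no interval. Of the 9 intervals, those of PHKA1 and PYGL lie above 0 before any adjustment for the number of genes tested.

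Among the regulatory alpha subunits, the groups did not overlap for PHKA1 and overlapped for PHKA2. PHKA1, the muscle-type alpha subunit gene, had 51.4, 51.6 and 54.04 CPM in VPA 391, 392 and 393 and 46.6, 40.04 and 41.3 CPM in controls 401, 402 and 408. The 3 VPA libraries were close together and all above the controls, of which 401 was the highest. The log2 fold change was 0.28 ± 0.075 (SE), with a 95% interval of 0.12 to 0.45, and did not pass over all genes (edgeR adjusted p = 0.11). Its adjusted p was lowest with DESeq2, at 0.064, and highest without control 408, at 0.27. PHKA2, the liver-type alpha subunit gene, had 27.6, 27.4 and 31.5 CPM in VPA and 29.8, 26.9 and 29.7 CPM in controls, in the same order of animals. Its means were equal to within their spread (28.8 ± 2.29 and 28.8 ± 1.67 CPM, SD, n = 3 each), with a 95% interval of the log2 fold change from -0.20 to 0.18.

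PHKA1 accounted for 73.99 ± 0.968% of the alpha FPKM in VPA and 69.8 ± 1.26% in controls (SD, n = 3 each). The share was 72.9% to 74.7% in the VPA libraries and 68.5% to 71.01% in the controls, with no overlap. The exact two-sided permutation test over libraries gave p = 0.10, the smallest that 3 against 3 allow. Both alpha genes lie on the X chromosome. Reads of the Y-linked gene EIF1AY numbered 450 to 548 in 4 libraries (VPA 391 and 393, controls 402 and 408) and 0 and 2 in VPA 392 and control 401. With this split as a covariate, chosen after seeing the data, the log2 fold change of PHKA1 was 0.28 ± 0.072 (edgeR adjusted p = 0.092) and that of PHKG1 1.18 ± 0.19 (SE).

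PHKB, the beta subunit gene, differed more between animals of a group than between groups. It had 106, 81.97 and 80.8 CPM in VPA 391, 392 and 393 and 110.6, 70.1 and 82.5 CPM in controls 401, 402 and 408. VPA 391 and control 401 were high, and the remaining 4 libraries lay between 70.1 and 82.5 CPM. Its SD of log2 CPM within groups was 0.28, larger than that of 99.0% of the 2045 genes within 0.5 log2 units of its level. Its log2 fold change was 0.018 ± 0.15 (SE, edgeR adjusted p = 0.97), and its 95% interval, from -0.32 to 0.35, was the widest of the 9 genes.

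Phosphorylase, the kinase's substrate, was the most abundant step of the pathway, and its brain form led. PYGB had 403, 379 and 367 CPM in VPA 391, 392 and 393 and 365, 389.9 and 380.0 CPM in controls 401, 402 and 408. The groups overlapped, with a log2 fold change of 0.0055 ± 0.055 (SE, edgeR adjusted p = 0.97). The 95% interval, from -0.12 to 0.13, was the narrowest of the 9 genes. PYGM, the muscle form, had 129.7, 134 and 112 CPM in VPA and 90.4, 143 and 103 CPM in controls, in the same order. Control 402 was its highest library and control 401 its lowest, a 1.58-fold span within 1 group. The SD of log2 CPM within groups was 0.26, larger than that of 99.1% of 1633 genes of like level, and the log2 fold change was 0.14 ± 0.14 (SE, edgeR adjusted p = 0.67). It was 0.00052 without control 401 and 0.35 without control 402 (edgeR adjusted p = 0.999 and 0.16).

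PYGL, the liver form, had 58.95, 59.99 and 58.2 CPM in VPA 391, 392 and 393 and 54.5, 54.9 and 48.6 CPM in controls 401, 402 and 408. The VPA libraries were tightly grouped and all above the controls, but the difference was small and did not pass over all genes (log2 fold change 0.15 ± 0.068 SE, edgeR adjusted p = 0.31). PYGL overlaps ABHD12B in the RefSeq table, which was listed at no more than 2.85 CPM in any library. ABHD12B had overlapping groups (log2 fold change -1.03 ± 0.45 SE, edgeR adjusted p = 0.29). PHKA1, PHKA2, GYS1 and GBE1 overlap only pseudogenes or long noncoding RNA genes there, which are not among the listed genes. Per length, PYGB made up 54.2 ± 1.27% of phosphorylase FPKM in VPA and 56.8 ± 3.19% in controls (exact two-sided permutation p = 0.30). PYGM made up 28.7 ± 1.49% and 26.99 ± 4.12% (exact p = 0.60), and PYGL 17.1 ± 0.711% and 16.2 ± 1.47% (exact p = 0.40, SD, n = 3 each). With 4 shares tested, including that of PHKA1, none could pass an adjusted 0.05.

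Neither enzyme of glycogen synthesis passed the test. GYS1, glycogen synthase, had 35.2, 39.7 and 36.1 CPM in VPA 391, 392 and 393 and 38.5, 39.1 and 39.2 CPM in controls 401, 402 and 408. The controls were nearly identical, and VPA 392 lay above them all while VPA 391 and 393 lay below. Its log2 fold change was -0.087 ± 0.074 (SE, edgeR adjusted p = 0.61). GBE1, the branching enzyme, had 33.8, 35.8 and 38.5 CPM in VPA and 33.2, 32.3 and 30.9 CPM in controls. The groups did not overlap, but VPA 391 and control 401 were only just apart, and the log2 fold change of 0.15 ± 0.076 (SE) did not pass (edgeR adjusted p = 0.35).

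Levels between genes were compared per length, on the deposited FPKM scale. In controls the order was PYGB (72.2 ± 2.41 FPKM), PYGM (34.7 ± 8.45), PHKG2 (22.04 ± 1.27), PYGL (20.5 ± 1.36), PHKB (20.1 ± 4.76), GYS1 (10.98 ± 0.119), GBE1 (10.01 ± 0.369), PHKA1 (6.50 ± 0.533), PHKA2 (2.80 ± 0.163) and PHKG1 (2.01 ± 0.290, SD, n = 3 each). Neighbours in this order overlapped between libraries for PHKG2 and PYGL and for PYGL and PHKB, and the other neighbours did not overlap. PYGB exceeded 94.7% of all listed genes in control FPKM, and PHKG1 exceeded 37.5%. In VPA, GBE1 (11.2 ± 0.725 FPKM) and GYS1 (10.4 ± 0.675) overlapped, and PHKG1 (4.60 ± 0.644) stood above PHKA2 (2.81 ± 0.223) with no overlap. Each level depends on the 1 length the authors used per gene, which ran from 1725 bases for PHKG2 to 10271 bases for PHKA2.

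**Figure D4:**
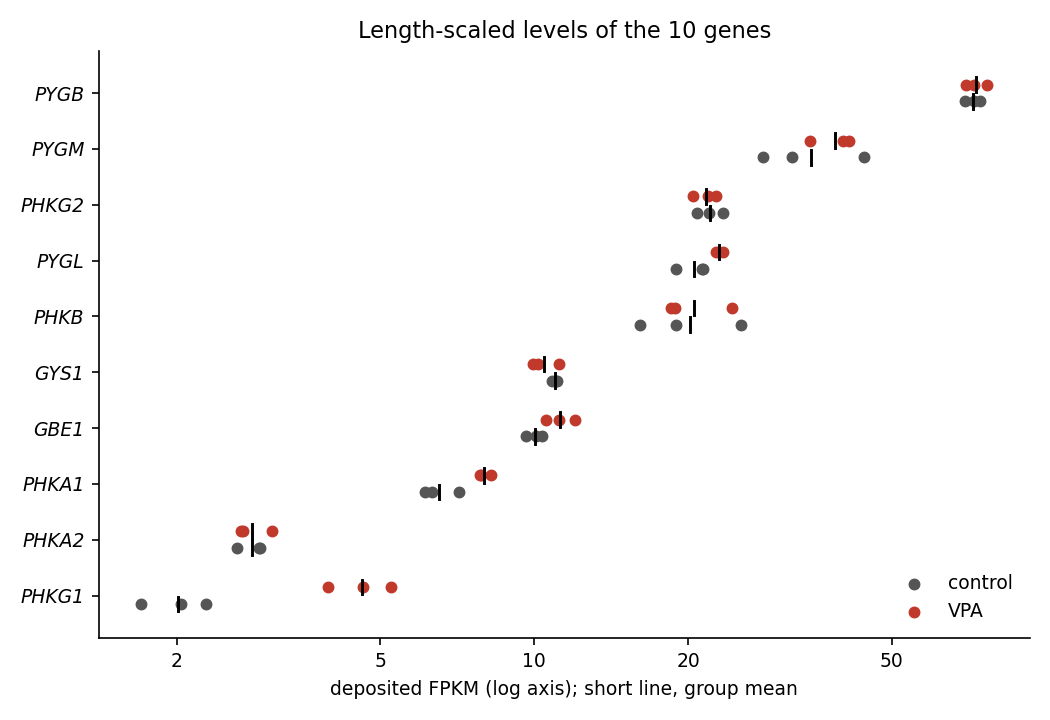
Deposited FPKM (x axis, log scale) of the 10 genes, ordered by their control mean, with 1 point per library (controls grey, VPA red) and a short line at each group mean. PYGB leads at 72.2 FPKM in controls, and PHKG1 is lowest in controls at 2.01 FPKM and above PHKA2 in VPA at 4.60 FPKM.

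Genes around these steps were read from 6 role lists with 40 listed genes, of which 37 were tested. The lists were chosen with earlier results of these data known. Their shares set against all genes, here and below, therefore describe the lists and are not an independent result. GYS2 (the liver synthase), PPP1R3A and PRKAG3 (both best known from muscle) were too low to test. None of the 37 was called by edgeR, 15 had an unadjusted p under 0.05 (40.5%, against 16.1% of all genes), and DESeq2 called 1, CALM2. Log2 fold changes were negative in 26 of 37 (70.3%, against 49.5% of all genes), with a median of -0.048 against 0.0018. Groups did not overlap in 12 (32.4%, against 21.2%), of which 9 were lower and 3 higher in VPA. In the same libraries the glutamatergic marker sum was lower in VPA, as given above, and its part in these shares was not tested.

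The calmodulin genes, which supply the delta subunit and many other calcium-dependent enzymes, had negative log2 fold changes in 3 of 3 cases, all small. CALM2 had 1437 to 1499 CPM in VPA and 1629 to 1689 CPM in controls, with no overlap (log2 fold change -0.19 ± 0.046 SE, edgeR adjusted p = 0.089, DESeq2 adjusted p = 0.0027). CALM3 had 2082 ± 27.3 and 2134 ± 59.4 CPM (SD, n = 3 each), with overlapping groups (-0.048 ± 0.048, edgeR adjusted p = 0.68). Regulating kinases had negative log2 fold changes in 12 of 15 tested, with a median of -0.11. In 7 of the 15 the groups did not overlap, all lower in VPA, against 9.07% of all genes lower in that way. PRKACA, a catalytic subunit of the cAMP-dependent kinase that activates phosphorylase kinase, had 148 ± 7.69 CPM in VPA and 163 ± 5.57 in controls (-0.16 ± 0.052 SE, edgeR adjusted p = 0.18). GSK3B, which inhibits glycogen synthase, had 229 ± 8.56 and 248 ± 8.68 CPM (-0.13 ± 0.048 SE, edgeR adjusted p = 0.23).

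Priming and precursor genes had 1 positive and 5 negative log2 fold changes among 6 tested (median -0.089). GYG2, a glycogenin that primes new glycogen, was the positive one, at 31.7 to 33.3 CPM in VPA and 22.2 to 29.7 CPM in controls (0.34 ± 0.11 SE, edgeR adjusted p = 0.15). PGM2L1, a glucose-1,6-bisphosphate synthase, had 169.9 ± 14.2 and 202 ± 23.5 CPM, with overlapping groups (-0.26 ± 0.085, edgeR adjusted p = 0.17). Of 9 protein phosphatase 1 genes, whose products reverse these phosphorylations or tether the phosphatase to glycogen, 5 were positive and 4 negative (median 0.012). The targeting subunit gene PPP1R3D had 15.3 ± 0.294 CPM in VPA and 12.6 ± 1.63 in controls (0.27 ± 0.12 SE), and PPP1R3C had 46.2 ± 8.46 and 55.7 ± 3.21 (-0.28 ± 0.12 SE, edgeR adjusted p = 0.28 for both). PPP1R3C was lowest in VPA 393, at 36.8 CPM.

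Other breakdown genes and the laforin-malin pair differed between groups by less than the larger of the SDs. GAA, the lysosomal glucosidase, had 23.3 ± 0.398 CPM in VPA and 22.03 ± 2.59 in controls, and STBD1, a glycogen-binding membrane protein, 11.1 ± 1.83 and 11.3 ± 2.39. EPM2A (laforin) had 16.8 ± 2.39 and 17.9 ± 0.990 CPM, and NHLRC1 (malin) 4.48 ± 0.325 and 4.18 ± 0.842 (SD, n = 3 each). The edgeR adjusted p of these 4 genes ran from 0.71 to 0.93.

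**Figure D5:**
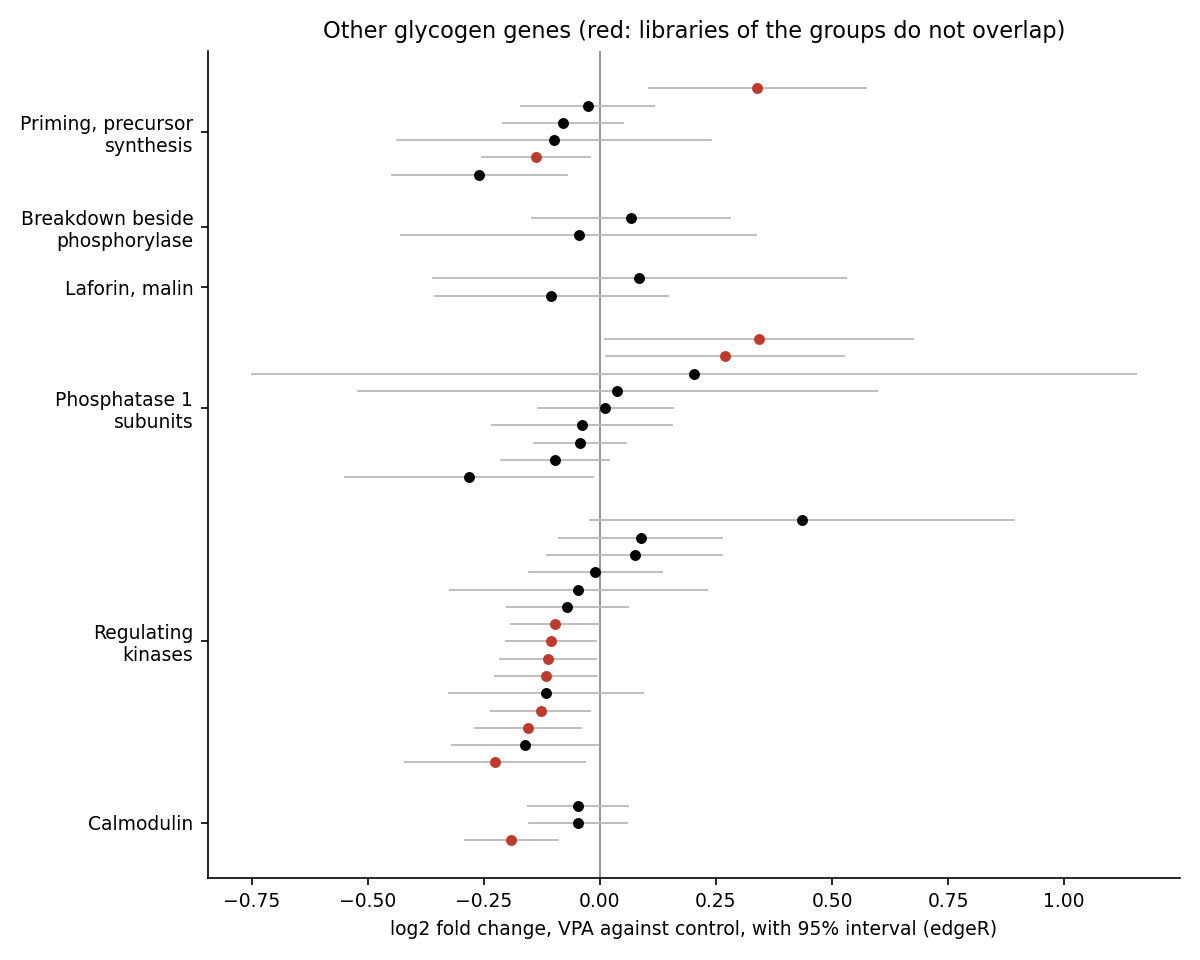
Log2 fold change of VPA against control (x axis) for the 37 other glycogen genes tested, grouped by role and sorted within each role, with 95% intervals of the edgeR fit as grey lines. Red points are the 12 genes whose libraries do not overlap between groups. The red points among regulating kinases and calmodulin all lie below 0.

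Because PHKG1, PHKA1 and PYGM are muscle forms, skeletal muscle markers were read in the same libraries. Of 12, only 4 passed the filter, of which 3 had positive log2 fold changes, and the sum of all 12 was 22.2 to 25.9 CPM in VPA and 17.1 to 21.2 CPM in controls, with no overlap. Of the 8 markers too low to test, CKM, muscle creatine kinase, reached at most 0.237 CPM and TNNT3, fast troponin T, at most 0.0614 CPM in any library. The sum came almost wholly from ACTA1, MYH7, RYR1 and CASQ1. CASQ1, a calcium store protein, had 6.94 ± 0.279 CPM in VPA and 4.34 ± 0.843 in controls, with no overlap (log2 fold change 0.66 ± 0.18 SE, edgeR adjusted p = 0.11). The part of these markers in the differences of PHKG1 and PHKA1 was not tested.

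Genes whose levels followed PHKG1 most closely over the 6 libraries were found among 13793 genes with a mean of at least 1 CPM, by Pearson's r of log2 CPM. The 5 closest were YEATS2 (r = 0.997), SPATA6 (0.994), SLC2A10 (0.993), SELENBP1 (0.993) and STRADB (0.992). With 6 libraries and a gene chosen for its group difference, such values describe genes that separate the same groups. The groups did not overlap for any of the 5, with log2 fold changes of 0.21 to 0.55, and none was called by edgeR (adjusted p = 0.064 to 0.17). Their closeness to PHKG1 favours this separation, so neither it nor these p-values are a separate result. SLC2A10, picked out of the 5 here because it encodes a facilitative glucose transporter, had 11.1 ± 0.508 CPM in VPA and 7.53 ± 0.339 in controls (SD, n = 3 each). Among the other members, PHKA1 had the highest r with PHKG1, at 0.92, and 189 genes had a higher one. GYS1 had the lowest, at -0.77.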

How the data were processed

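Prefrontal cortex RNA of 6 animals was sequenced, with TRIzol extraction and a VAHTS Universal V6 library kit per the labels' protocols. The sources used here name no aligner, counting tool, strand setting, build or annotation. The authors' deposited files give whole-number counts, not normalized, and their FPKM. All 97071 nonzero FPKM values equalled the count over the library total and 1 whole-number gene length (relative tolerance 0.001). Of the 17201 listed names, 24 were date-like and stayed in the totals and tests. Groups came from the titles. The labels name separate animals but no litter or batch. The p-values set each group difference against the spread between animals within groups. Whether the animals of a group came from separate litters is not given. Because exposure was during gestation, a difference in litter between the groups could not be told apart from one of VPA.

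Counts were fitted in R 4.3.3 with edgeR 4.0.16 (filterByExpr, leaving 14373 genes; TMM; glmQLFit and glmQLFTest; Benjamini-Hochberg, threshold 0.05). CPM used file totals. SE is the log2 fold change over the square root of F. The fit was tested on simulated data. Shares of FPKM were compared by an exact two-sided permutation test. Alternatives were other scalings and filters, DESeq2 1.42.0, limma 3.58.1, robust dispersion and each library left out. An EIF1AY covariate was chosen after seeing the data.

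Named were the 10 members, the 2 genes with the lowest p in each glycogen role list, the 5 genes closest to PHKG1, the neighbours of PHKG1, and marker lists by their counts and sums. CKM, TNNT3 and CASQ1, and genes too low to test, were named after their values were seen. The members and all lists were chosen with earlier results of these data known. No sequences were used here.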

Additional observations from a re-analysis of the deposited data

How the results depend on the processing

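The 9 members not chosen for their change held 0 calls under all 17 alternatives, and the log2 fold changes of PHKG2, PHKA1, PYGL, GYS1 and GBE1 kept their direction in all 17. That of PYGM ran from 0.00052 (without control 401) to 0.35 (without control 402). The log2 fold change of PHKG1 was 0.90 with limma on log2(FPKM + 1), where the pseudocount shrinks low genes, and stayed within its spread between replicates otherwise (1.07 to 1.28 with a library left out). PHKA2, near 0 throughout, turned to 0.0015 with library size only and 0.00010 with limma on log2(FPKM + 1), and ran from -0.074 to 0.023 with a library left out. PHKB ran from -0.13 (without VPA 391) to 0.21 and PYGB from -0.046 (without VPA 391) to 0.042. The PYGM share difference ran from -0.062 (without control 401) to 3.95 percentage points. Other glycogen genes called numbered 1 with DESeq2 (CALM2) and 0 in the other 16 alternatives. Over all genes, 52 calls became 141 with no filter, 168 with robust dispersion, 444 with DESeq2, 30 with limma-voom and 2 with limma on log2(FPKM + 1) or log2(FPKM + 0.1); with a library left out the edgeR count ran from 0 (without VPA 391 or VPA 392, with 1897 and 1719 genes at an unadjusted p under 0.05) to 66 (without control 401), with 1, 5 and 2 calls without VPA 393, control 402 and control 408. The cause was not tested. Of the 10 members, PHKG1 had the fewest reads, 54 to 158 per library. No paired analysis was possible because the groups share no replicate number.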

Other observations

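PHKB and PYGM, the members with the widest spread within groups, stood in opposite order in controls 401 and 402. PHKB was highest of all 6 libraries in control 401, at 110.6 CPM, where PYGM was lowest, at 90.4 CPM. PHKB was lowest in control 402, at 70.1 CPM, where PYGM was highest, at 143 CPM. The VPA libraries did not show this order: VPA 393 was lowest of its group in both, at 80.8 and 112 CPM.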
